A study of Mus musculus with 8 samples.

Results

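The immunity-related GTPases (Irg) and guanylate-binding proteins (Gbp) are large GTPases that mouse cells make in response to interferons. The genes described here are Iigp1, Igtp, Irgm1, Irgm2, Tgtp1, Tgtp2, Gbp2, Gbp3, Gbp7 and Gbp9. They were chosen by name, with earlier results of these data known, and all 10 were among the 13245 genes of the filtered expression table. RNA-seq was carried out on CD8 T cells with the surface phenotype Ly6C+CXCR3+, sorted from lymph nodes of 4 CD103Tg and 4 B6 samples. CD103Tg mice overexpress CD103, an integrin chain whose gene is Itgae, and B6 stands for the C57BL/6 strain. The promoter that drives the transgene, the age of the animals and whether a library came from 1 animal or from several are not given in the sources used here, and p-values therefore cover no more than the variation among these samples.

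The libraries held 50187279 to 56371476 estimated reads over the listed genes. Itgae ranged over 3469 to 5509 CPM in CD103Tg. In B6 it stood at 41.4, 51.4, 37.5 and 174 CPM, with replicate 4 well above the others. Of 9 genes of CD8 T cell identity and of the sort, 7 did not pass the test and Trac and Cd8a were lower. Over all tested genes, 13.8% were called lower. Trac stood at 642 ± 31.7 CPM in CD103Tg and 1007 ± 87.1 CPM in B6, and Cd8a at 1006 ± 43.5 CPM in CD103Tg and 1191 ± 31.9 CPM in B6 (mean ± SD, n = 4 each). Xist and the Y-linked genes varied among the libraries of both groups, with Ddx3y at 48.5, 113, 29.4 and 20.8 CPM in CD103Tg and 117, 139, 0 and 114 CPM in B6. Xist stood at 21.7, 0.0231, 36.4 and 45.2 CPM in CD103Tg and 0.0214, 0.0390, 72.0 and 1.71 CPM in B6. CD103Tg replicates 1, 3 and 4 thus held both kinds of transcript. B6 replicate 4 also held both, with Xist at 1.71 CPM beside Ddx3y at 114 CPM. Whether these libraries pool animals of both sexes was not tested.

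Type I interferons signal through the receptor chains Ifnar1 and Ifnar2 to a complex that holds Irf9 and binds the interferon-stimulated response element (ISRE). Interferon gamma signals through Ifngr1 and Ifngr2 to the gamma-activated site (GAS), and it also induces Irf1. The Irg proteins known as regulators, Igtp (Irgm3), Irgm1 and Irgm2, keep the effector Irg proteins off the cell's own membranes. The effectors, Iigp1 (Irga6) and the Tgtp proteins (Irgb6), load onto vacuoles that hold parasites or bacteria and break them open. Gbp proteins assemble on the same vacuoles and on bacteria and promote inflammasome activation. In T cells, Irgm1 is known for a part in the survival of dividing cells after interferon gamma.

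The annotated promoters of these genes are shown first because they carry the sites through which interferon signals are known to reach the family. RefSeq promoter windows of the GRCm38.p6 build, from 250 bases before to 50 bases after the annotated start, were at hand for 8 of the 10 members, with 9 windows since Gbp3 has 2. The ISRE core was searched as GAAA, any 2 bases and GAAA, or its reverse complement, and the GAS core as TTCNNNGAA, on both strands and with overlapping matches allowed. The 120 bases from 130 to 11 bases before the start follow, 5′ to 3′ on the strand of the gene, with matches in capitals.
Igtp (chr11:58199426-58199545, plus strand): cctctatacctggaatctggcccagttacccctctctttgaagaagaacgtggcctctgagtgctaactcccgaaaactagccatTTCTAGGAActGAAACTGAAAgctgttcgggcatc
Irgm1 (chr11:48871431-48871550, minus strand): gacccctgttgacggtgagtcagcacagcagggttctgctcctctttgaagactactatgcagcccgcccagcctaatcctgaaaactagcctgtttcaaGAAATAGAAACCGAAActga
Irgm2 (chr11:58214847-58214966, plus strand): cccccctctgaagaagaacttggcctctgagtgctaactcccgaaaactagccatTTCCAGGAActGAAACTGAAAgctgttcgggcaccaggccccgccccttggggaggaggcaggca
Tgtp1 (chr11:48992257-48992376, minus strand): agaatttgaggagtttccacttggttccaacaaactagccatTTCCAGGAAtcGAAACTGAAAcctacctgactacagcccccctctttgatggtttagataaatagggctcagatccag
Tgtp2 (chr11:49064223-49064342, minus strand): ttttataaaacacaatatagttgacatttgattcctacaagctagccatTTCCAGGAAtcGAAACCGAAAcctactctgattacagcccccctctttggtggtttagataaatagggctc
Gbp2 (chr3:142620533-142620652, plus strand): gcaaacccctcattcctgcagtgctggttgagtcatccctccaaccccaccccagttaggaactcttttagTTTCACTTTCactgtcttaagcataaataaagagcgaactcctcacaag
Gbp3 (chr3:142559914-142560033, plus strand): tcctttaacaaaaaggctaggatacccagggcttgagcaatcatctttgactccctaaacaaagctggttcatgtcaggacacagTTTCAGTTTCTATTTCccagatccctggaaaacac
Gbp7 (chr3:142530206-142530325, plus strand): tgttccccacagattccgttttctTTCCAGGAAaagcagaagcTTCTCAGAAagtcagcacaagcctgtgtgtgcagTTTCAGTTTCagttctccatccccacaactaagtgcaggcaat

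All 8 members with a window held an ISRE core in it, against 3.44% of all 32851 windows. A GAS core stood in 5 of them (Igtp, Irgm2, Tgtp1, Tgtp2 and Gbp7), against 8.30% of all windows, and 0.454% of all windows held both. In Igtp, Irgm2, Tgtp1 and Tgtp2 the ISRE core began 11 bases after the start of the GAS core, whereas the nearest pair in Gbp7 was 34 bases apart. In Irgm1 and in the first Gbp3 window 2 ISRE matches overlapped. The Igtp and Irgm2 windows shared 184 of 270 aligned bases without gaps, and the Tgtp1 and Tgtp2 windows 151 of 292. A match is a description of the letters and no measure of binding.

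**Figure D1:**
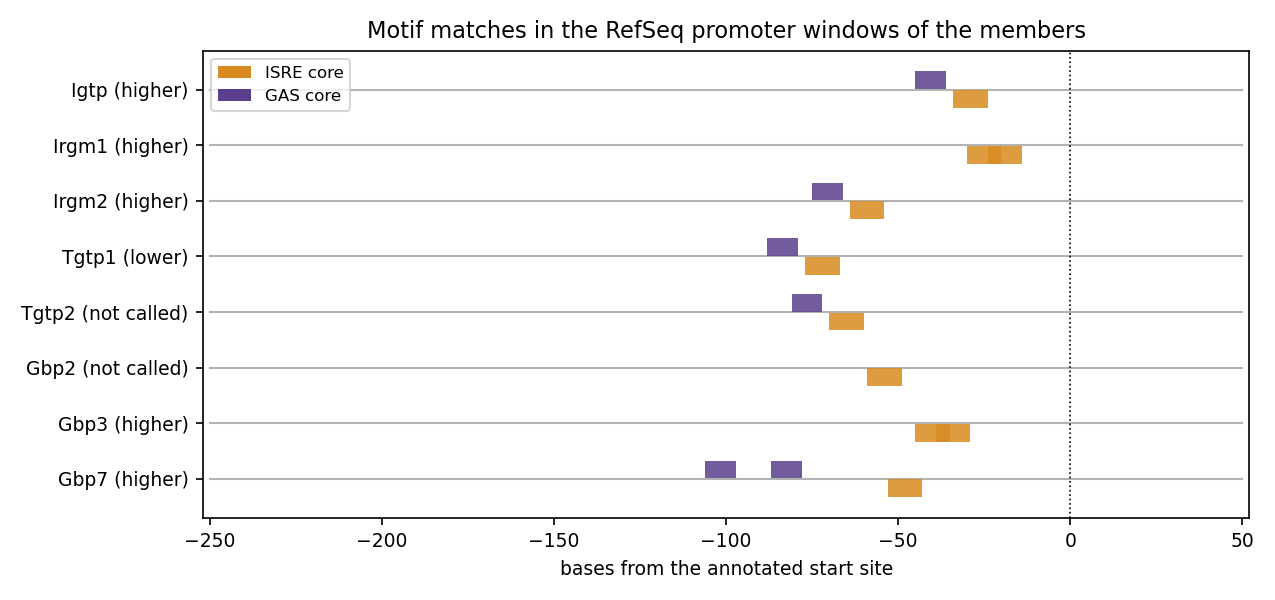
Positions of ISRE and GAS core matches, in bases from the annotated start site, in the RefSeq promoter windows of 8 members. The word after each name gives the result of the expression test in CD103Tg against B6; ISRE matches stand within 77 bases of the start in members that were higher, lower and not called.

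The deposited values are CPM on TMM-scaled library sizes. Genes whose mean reached 1 CPM were tested on log2(CPM + 1) with limma, at a Benjamini-Hochberg adjusted p under 0.05 over all 11503 tested genes, and all 10 members passed that filter. Of the 10 members, 7 were higher in CD103Tg, 1 was lower and 2 did not pass the test. Over all tested genes, 17.4% were called higher, 13.8% lower and 31.2% in either direction. The median log2 fold change was 0.45 over the members and -0.0052 over all tested genes. The CD103Tg and B6 values of 7 members did not overlap, as was the case for 31% of all tested genes. An exact two-sided permutation test gives p = 0.0286, the smallest that 70 assignments allow, whenever the groups do not overlap. The same 7 members therefore had that p, which adds nothing to the lack of overlap. As these are bulk libraries, more RNA per cell and more cells of an expressing type cannot be told apart.

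**Figure D2:**
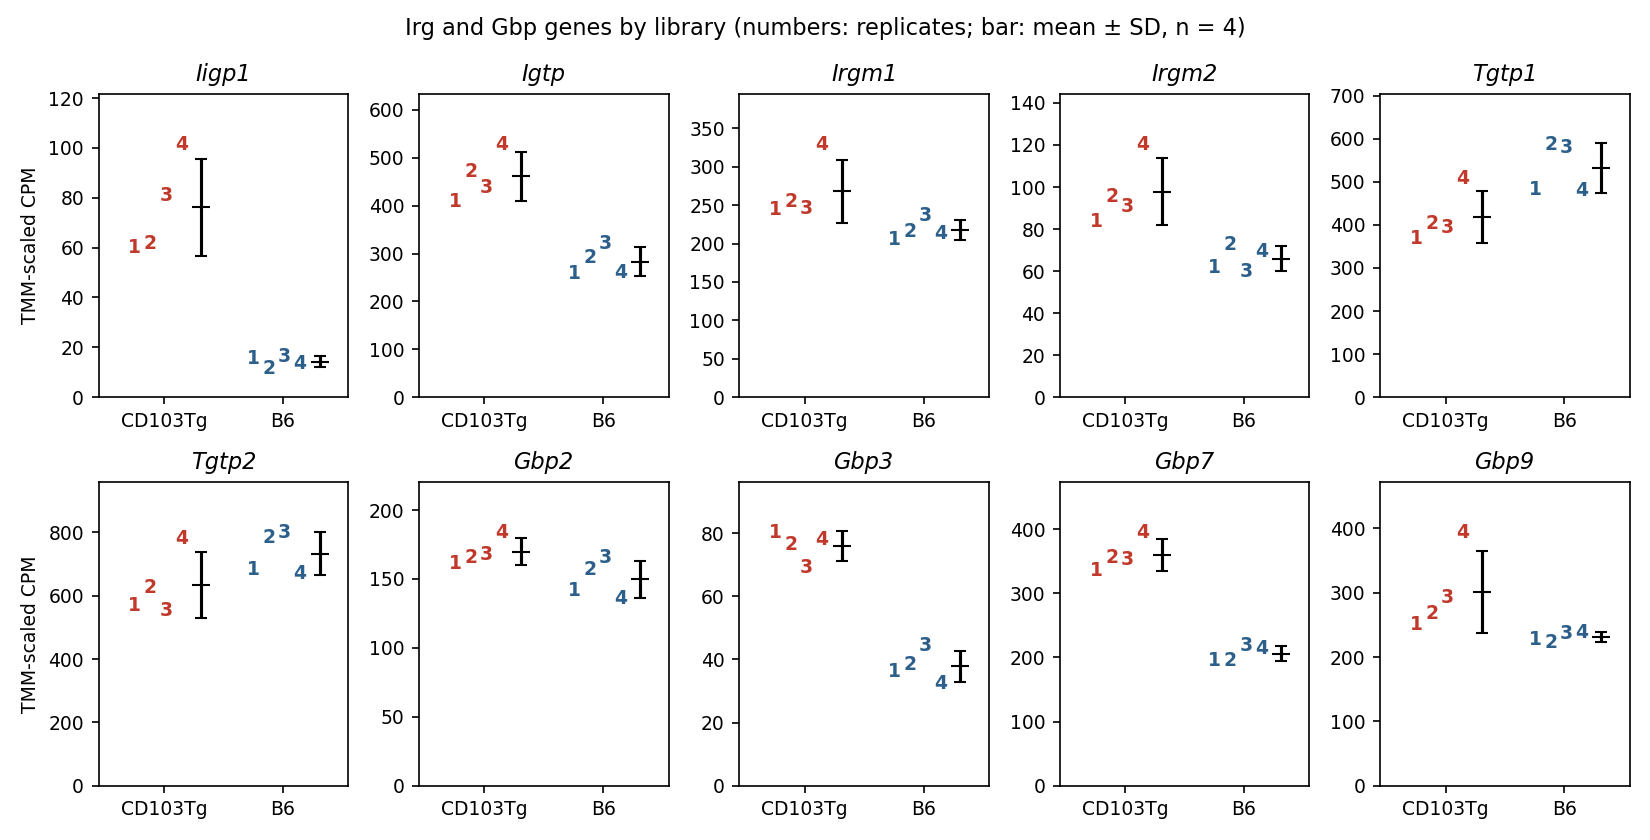
TMM-scaled CPM of the 10 members in each library, with CD103Tg libraries in red and B6 libraries in blue; digits are replicate numbers and bars are the mean ± SD (n = 4). Iigp1 stood between 60.2 and 102 CPM in CD103Tg and between 11.3 and 16.4 CPM in B6, while the groups overlapped in Tgtp1, Tgtp2 and Gbp2.

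Among the regulators, Igtp changed most. Igtp (GRCm38 chromosome 11, 58199556 to 58207591, plus strand) stood at 408, 471, 437 and 529 CPM in CD103Tg, against 258, 293, 321 and 260 CPM in B6. Every CD103Tg library lay above every B6 library, and the gene rose by 0.70 ± 0.09 on the log2 scale (SE; limma adjusted p = 0.000155). Irgm2 (chromosome 11, 58199618 to 58222782, plus strand) stood at 83.7, 95.6, 90.9 and 120.4 CPM in CD103Tg, against 61.7, 72.8, 59.9 and 69.5 CPM in B6. These groups did not overlap either, and Irgm2 rose by 0.55 ± 0.10 (SE; limma adjusted p = 0.00228). Igtp and Irgm2 share 162 exonic bases on the same strand. By a separate measure, 11.8% of the 50-base stretches of the Igtp transcripts also occur in Irgm2 transcripts. Of the Irgm2 stretches, 6.8% also occur in Igtp transcripts, so the division of reads from shared stretches is uncertain.

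Irgm1 (chromosome 11, 48861968 to 48871683, minus strand) changed less. It stood at 244, 254, 245 and 330 CPM in CD103Tg, against 205, 215, 237 and 213 CPM in B6. The lowest CD103Tg library lay just above the highest B6 library, and the gene rose by 0.29 ± 0.09 (SE; limma adjusted p = 0.0331). CD103Tg replicate 4 was far above the other 3, and without it the log2 fold change was 0.19 ± 0.06 (limma adjusted p = 0.0329). The call was lost without CD103Tg replicate 2, without B6 replicate 1, 2 or 4, without both libraries numbered 4, and with quantile or equal-total scaling, with limma adjusted p up to 0.0828.

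The effectors split. Iigp1 (chromosome 18, 60376027 to 60392634, plus strand) had the largest change of the 10 members, at 60.2, 61.8, 81.0 and 102 CPM in CD103Tg, against 15.6, 11.3, 16.4 and 13.5 CPM in B6. All CD103Tg libraries were several times above all B6 libraries. Iigp1 rose by 2.32 ± 0.16 (SE; limma adjusted p = 2.86e-06), or 5.0-fold on the log2(CPM + 1) scale. Of the 50-base stretches of the Iigp1 transcripts, 1.7% also occur in transcripts of other genes.

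Tgtp1 (chromosome 11, 48985327 to 48994172, minus strand) went the other way. It stood at 369, 404, 393 and 507 CPM in CD103Tg, against 482, 588, 579 and 481 CPM in B6. Only CD103Tg replicate 4 reached the B6 range. Tgtp1 fell by 0.35 ± 0.10 (SE; limma adjusted p = 0.0232), with an exact two-sided permutation p = 0.0857. Without CD103Tg replicate 4 the log2 fold change was -0.45 ± 0.08 (limma adjusted p = 0.00248), and without CD103Tg replicate 1, 2 or 3 or B6 replicate 2 or 3 the call was lost, with limma adjusted p = 0.0604 to 0.0673.

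Tgtp2 (chromosome 11, 49057194 to 49064206, minus strand) stood at 571, 627, 554 and 782 CPM in CD103Tg, against 682, 783, 799.6 and 669 CPM in B6. The first 3 CD103Tg libraries lay below all B6 libraries and the last lay within them. The log2 fold change was -0.22 ± 0.11 and did not pass (SE; limma adjusted p = 0.140). It passed without CD103Tg replicate 4, at -0.33 ± 0.08 (limma adjusted p = 0.0110), and without both libraries numbered 4, at -0.37 ± 0.08 (limma adjusted p = 0.00516).

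Tgtp1 and Tgtp2 are near copies. Of the 50-base stretches of their transcripts, 79.4% of those of Tgtp1 also occur in Tgtp2 and 85.8% of those of Tgtp2 in Tgtp1, so the split of reads between them is uncertain. Their sum does not depend on that split. It stood at 940, 1031, 947 and 1289 CPM in CD103Tg, against 1164, 1371, 1379 and 1150 CPM in B6. Again the first 3 CD103Tg libraries were below all B6 libraries and replicate 4 was not. The sum had a log2 fold change of -0.27 ± 0.11 and did not pass (SE; limma adjusted p = 0.0716).

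The makeup of the family's RNA is given here as a description with no test. Tgtp1 and Tgtp2 together made up 36.7% ± 1.02 of the summed CPM of the 10 members in CD103Tg and 51.2% ± 1.61 in B6 (mean ± SD, n = 4 each). The range was 35.3% to 37.7% in CD103Tg, replicate 4 included, against 49.4% to 53.2% in B6. The summed CPM of the members was 2861 ± 382 in CD103Tg and 2472 ± 184 in B6.

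Of the 4 Gbp members, Gbp3 and Gbp7 had the largest changes. Gbp3 (chromosome 3, 142560026 to 142573209, plus strand) stood at 80.2, 76.5, 69.1 and 78.2 CPM in CD103Tg, against 36.2, 38.4, 44.3 and 32.4 CPM in B6. The groups were far apart, and Gbp3 rose by 0.99 ± 0.09 (SE; limma adjusted p = 1.33e-05). Gbp7 (chromosome 3, 142530342 to 142550149, plus strand), which is known for a part in the assembly of the phagocyte oxidase, stood at 335, 356, 352 and 394 CPM in CD103Tg, against 195, 195, 219 and 214 CPM in B6. These groups were also apart, and Gbp7 rose by 0.80 ± 0.06 (SE; limma adjusted p = 5.94e-06). Gbp7 shares 10.5% of its 50-base stretches with Gm43802 on the same strand, so a part of its reads is uncertain.

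Gbp9 (chromosome 5, 105077630 to 105139539, minus strand) stood at 251, 268, 293 and 394 CPM in CD103Tg, against 228, 222, 237 and 238 CPM in B6. The CD103Tg libraries were spread widely and all lay above B6. Gbp9 rose by 0.36 ± 0.11 (SE; limma adjusted p = 0.0330), and without CD103Tg replicate 4 the log2 fold change was 0.22 ± 0.06 (limma adjusted p = 0.0189). It lost the call without CD103Tg replicate 3, without B6 replicate 1, 2 or 3, and with quantile or equal-total scaling, with limma adjusted p up to 0.0769.

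Gbp2 (chromosome 3, 142620602 to 142638008, plus strand), a prenylated member that targets vacuoles in mouse cells, stood at 161, 166, 168 and 184 CPM in CD103Tg, against 141, 157, 165 and 136 CPM in B6. The groups overlapped, since B6 replicate 3 lay within the CD103Tg range. The log2 fold change was 0.18 ± 0.07 and did not pass (SE; limma adjusted p = 0.0718). It passed without B6 replicate 3 (limma adjusted p = 0.0310) and with the Y-linked level as a covariate (limma adjusted p = 0.0360), and was 0.097 without both libraries numbered 4 (limma adjusted p = 0.287). Gbp2 and Gbp3 lie in the same gene cluster on chromosome 3, and the Gbp2 window and the first Gbp3 window hold an ISRE core and no GAS core. The second Gbp3 window holds neither.

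**Figure D3:**
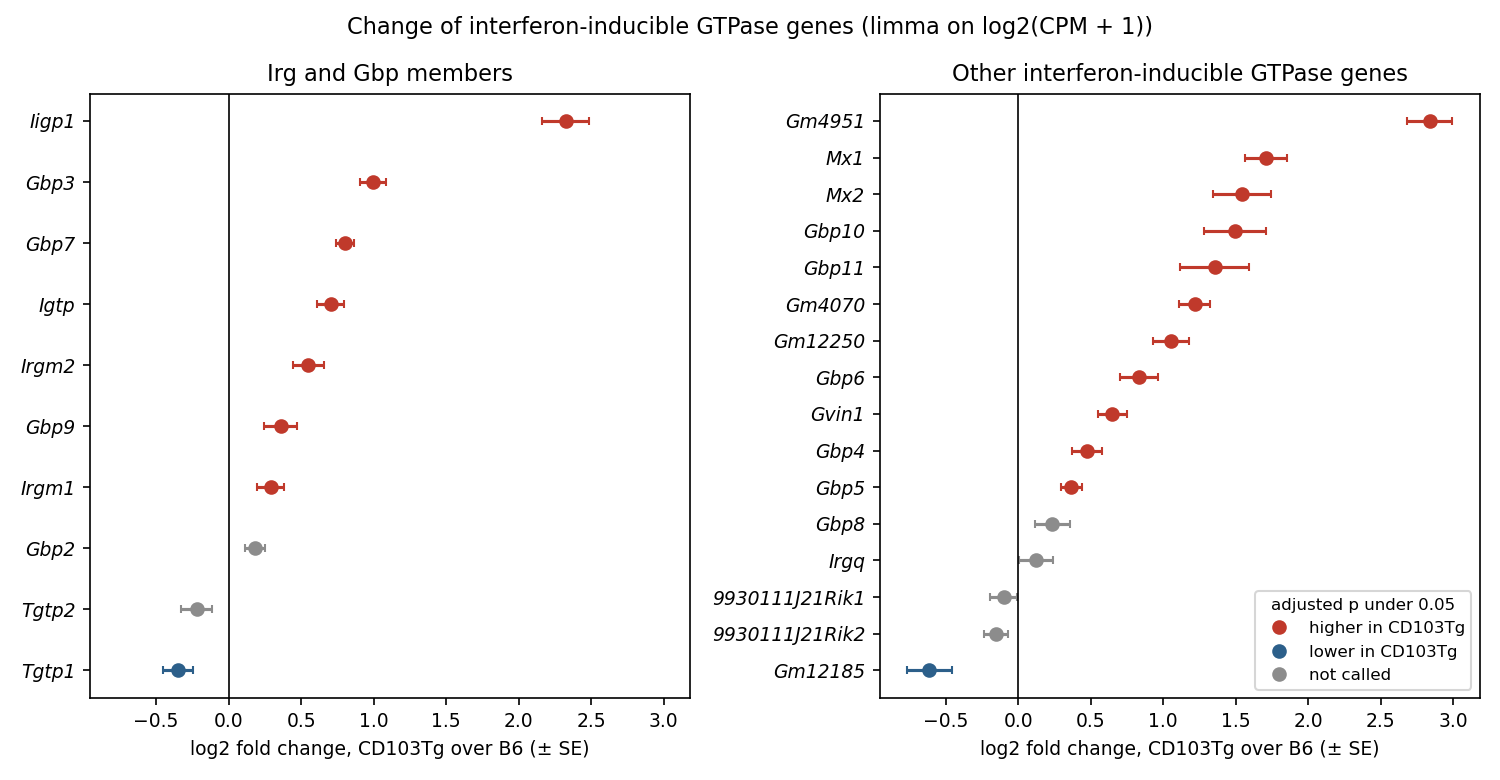
log2 fold changes of CD103Tg over B6 with their SE from limma on log2(CPM + 1), for the 10 members and 16 other interferon-inducible GTPase genes (n = 4 libraries per group). The members spread between -0.35 (Tgtp1) and 2.32 (Iigp1), and the other genes between -0.61 (Gm12185) and 2.84 (Gm4951).

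Levels between genes were compared per kilobase of annotated exon, with the exons of all annotated transcripts of a gene joined. In CD103Tg, Igtp had the highest level at 228 ± 25.6 CPM per kilobase, followed by Tgtp2 at 216 ± 35.4 and Tgtp1 at 130.5 ± 19.0 (mean ± SD, n = 4). In B6, the order began with Tgtp2 at 249.7 ± 22.9 CPM per kilobase, Tgtp1 at 166 ± 18.4 and Igtp at 139.9 ± 14.9. Igtp and Tgtp2 in CD103Tg, and Tgtp1 and Igtp in B6, differed by no more than their SDs together. The same held in CD103Tg for Gbp2 against Gbp7, Gbp2 against Gbp9 and Gbp3 against Irgm2. Gbp2 was the highest Gbp member in both groups, at 67.4 ± 3.89 CPM per kilobase in CD103Tg and 59.6 ± 5.36 in B6. Iigp1 was the lowest of the 10 members in both groups, at 13.1 ± 3.33 CPM per kilobase in CD103Tg and 2.44 ± 0.392 in B6, and Gbp3 was the next lowest.

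Within each group most members varied together. CD103Tg replicate 4 was the highest of its group in 9 of the 10 members, Gbp3 being the exception, whereas it was the highest of its group in 28.3% of all tested genes. In that library the members stood on average 0.26 above the group mean on the log2(CPM + 1) scale. In B6, replicate 3 was the highest in 7 members, and in 24% of all tested genes, with a mean deviation of 0.11. After removal of the group means, the median Pearson r between members over the 8 libraries was 0.69, and 43 of 45 pairs were above 0. Tgtp1 and Tgtp2 were the closest pair (r = 0.96), which share reads, and Gbp3 followed the mean of the other members least (r = 0.32). Tgtp1, which was lower in CD103Tg, followed the mean of the other members within groups at r = 0.91.

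**Figure D4:**
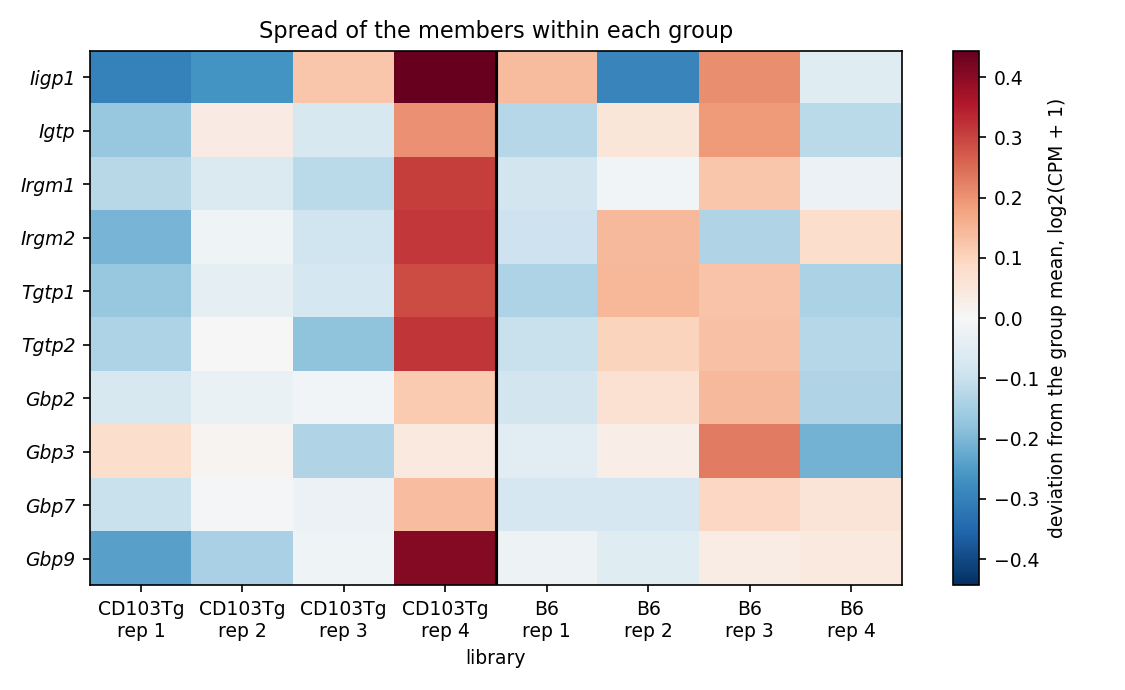
Deviation of each member from its group mean on the log2(CPM + 1) scale, in each of the 4 CD103Tg and 4 B6 libraries. CD103Tg replicate 4 is above its group mean in all 10 members, by 0.26 on average.

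The genes nearest to the mean deviation of the members, by Pearson r over the 8 libraries, were Ifi209 (r = 0.99), Ifi214 (0.98), Rfx7 (0.97), Otud3 (0.97) and Mndal (0.97), among 11493 other tested genes with a median r of -0.0085 and a 99th percentile of 0.88. Ifi209, Ifi214 and Mndal belong to the p200 family of interferon-inducible DNA-binding proteins. Ifi209 stood at 495 ± 62.2 CPM in CD103Tg and 359 ± 18.9 CPM in B6, and rose by 0.46 ± 0.08 (SE; limma adjusted p = 0.00138, n = 4 each). Rfx7 and Otud3 did not pass the test. These correlations rest on 8 libraries and are a description.

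Other interferon-inducible GTPase genes showed a like spread. Of 17 listed genes of a list of 20, 16 were tested. Of these, 11 were higher, 1 was lower and 4 did not pass, with a median log2 fold change of 0.74. That is 75% called, against 31.2% over all tested genes. The 4 with the smallest p-values were Gm4951, the antiviral Mx1, the very large GTPase gene Gm4070 and Gm12250, known as Irgb10. Gm4951, which is on chromosome 18 like Iigp1, stood at 5.85, 7.82, 9.02 and 5.55 CPM in CD103Tg, against 0.147, 0.0589, 0.0383 and 0.206 CPM in B6. It was near 0 in all B6 libraries and rose by 2.84 ± 0.16 on the log2(CPM + 1) scale (SE; limma adjusted p = 6.54e-07), which understates the change of so low a gene. Mx1 rose by 1.71 ± 0.14, Gm4070 by 1.22 ± 0.11 and Gm12250 by 1.05 ± 0.12. Gm4070 shares 95.0% of its 50-base stretches with Gvin1, so the division between these genes is uncertain.

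Counting members and other Gbp genes together, 8 of 10 tested Gbp genes were higher, 0 were lower, and Gbp2 and Gbp8 did not pass. Over all tested genes, 17.4% were called higher. Gbp10 stood at 106 ± 46.4 CPM in CD103Tg and 34.7 ± 2.62 CPM in B6 (mean ± SD, n = 4 each), but shares 73.3% of its stretches with Gbp6, which also rose. The single other gene called lower was Gm12185, at 26.5, 29.9, 27.8 and 45.4 CPM in CD103Tg and 45.0, 59.9, 47.5 and 44.7 CPM in B6. It fell by 0.61 ± 0.15 (SE; limma adjusted p = 0.0112). Gm12185 is on the same strand as Tgtp1 and overlaps it by 223 exonic bases, and its window holds the GAS and ISRE cores at the spacing of the Tgtp genes.

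Genes of both interferon pathways were described beside the family. Of 18 type I interferon signalling and response genes, 14 were higher and 4 did not pass, with a median log2 fold change of 1.16. In this list 77.8% were called, against 31.2% over all tested genes. The 4 with the smallest p-values were Ifi44 (4.01 ± 0.16), the feedback protease gene Usp18 (2.10 ± 0.09), and the oligoadenylate synthetase genes Oas1a (2.55 ± 0.11) and Oas3 (1.40 ± 0.07). Irf9 rose by 0.30 ± 0.06 (SE; limma adjusted p = 0.00444). The receptor genes did not pass, with Ifnar1 at 228 ± 9.56 CPM in CD103Tg and 218 ± 22 CPM in B6, and Ifnar2 at 176 ± 14.2 CPM in CD103Tg and 169 ± 6.84 CPM in B6 (SD, n = 4 each).

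Of 18 tested interferon gamma signalling and response genes, 5 were higher, 1 was lower and 12 did not pass, which is 33.3% called, against 31.2% over all tested genes, with a median log2 fold change of 0.064. Those with the smallest p-values included Cxcl10 (1.94 ± 0.16), Irf8 (0.69 ± 0.06) and the signalling inhibitor Socs1 (1.08 ± 0.10). Irf1, a factor that interferon gamma induces and that acts on Gbp promoters, stood at 407, 426, 419 and 438 CPM in CD103Tg, against 405, 463, 418 and 443 CPM in B6. The groups lay on top of each other, and Irf1 differed by -0.032 ± 0.055 on the log2 scale (SE; limma adjusted p = 0.702). Ifng stood at 6.81, 4.51, 7.35 and 5.11 CPM in CD103Tg, against 2.37, 0.936, 4.29 and 6.74 CPM in B6, with overlapping groups and a log2 fold change of 0.76 ± 0.35 (SE; limma adjusted p = 0.121). Ifng passed without B6 replicate 4, and without both libraries numbered 4, with adjusted p down to 0.0185 in limma. Of the receptor chains, Ifngr2 fell by 0.63 ± 0.20 (SE; limma adjusted p = 0.0338) and lost its call under 6 of 21 other settings, and Ifngr1 was at -0.18 ± 0.08 (limma adjusted p = 0.0926). The share of genes called was not compared between the type I and gamma lists by a test. The lists differ in makeup: the type I list holds mostly response genes, and the gamma list many receptor, kinase and inhibitor genes. Of the gamma list, Batf2, Ido1 and Cxcl9 were not in the expression table, and the Irg and Gbp genes were counted apart. The medians of these lists therefore do not rank the interferon responses.

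**Figure D5:**
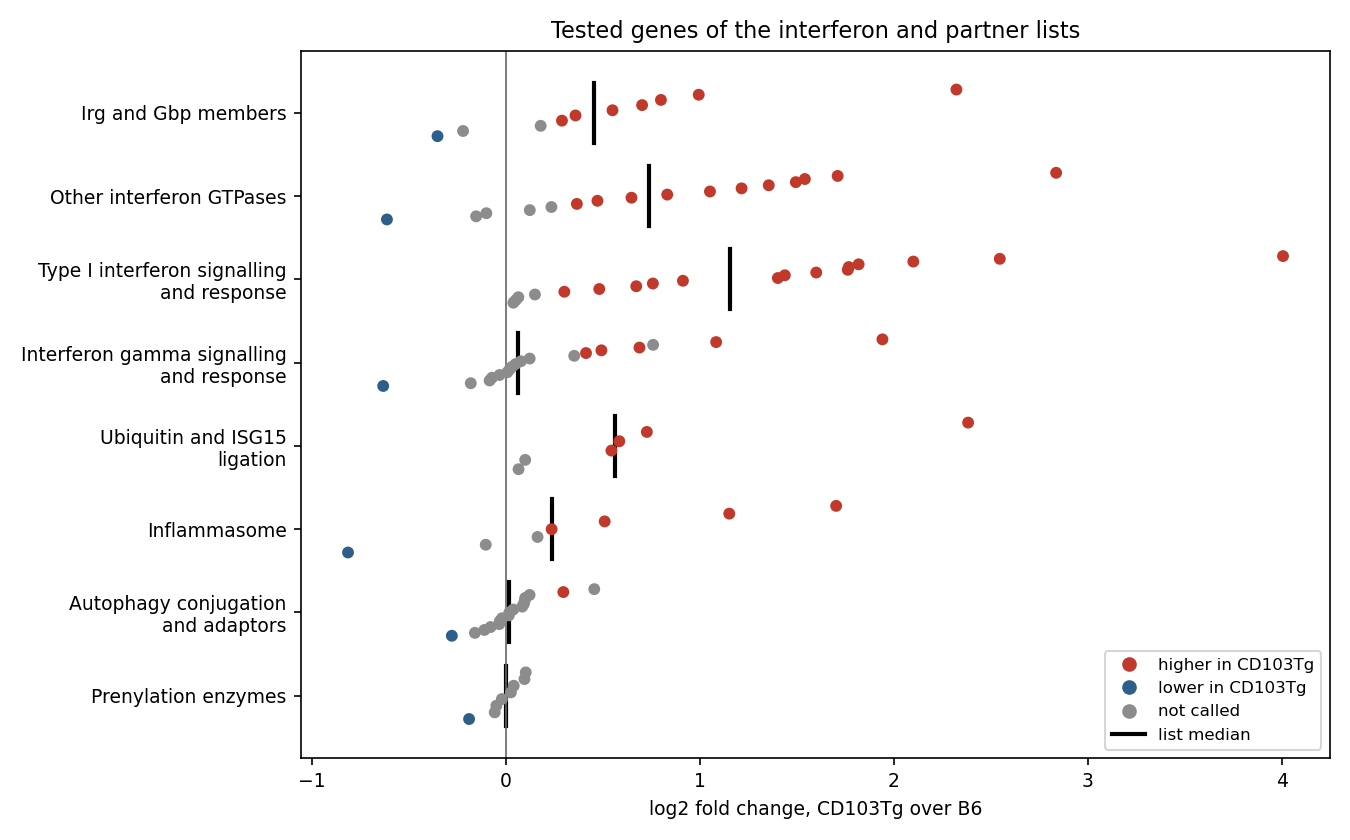
log2 fold changes of CD103Tg over B6 for each tested gene (points, coloured by the limma call at an adjusted p under 0.05) of the members and of 7 related lists, with the list median as a black bar. The median is 0.45 for the members, 1.16 for type I interferon genes, 0.064 for interferon gamma genes and 0.018 for autophagy genes. The interferon lists differ in makeup, with mostly response genes in the type I list and many receptor, kinase and inhibitor genes in the gamma list.

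Lists of autophagy, prenylation, ubiquitin and ISG15 ligation, and inflammasome genes were described in the same way. A gene on these lists need not be a partner of the GTPases. Beside them stand 17.4% of all tested genes called higher and 13.8% called lower. Of the autophagy genes 11.8% were called and of the prenylation genes 12.5%, below the 31.2% over all tested genes. Autophagy conjugation proteins are needed to place Irg and Gbp proteins on vacuoles, and of 17 such genes and adaptors 1 was higher, 1 was lower and 15 did not pass. Gabarapl2, which belongs to the Atg8 group, rose by 0.30 ± 0.08 and the adaptor gene Sqstm1 fell by 0.28 ± 0.07, while Gabarapl1 (0.46 ± 0.19) and Atg4b (0.085 ± 0.055) did not pass. Of 8 prenylation enzyme genes, which serve the lipid-modified Gbp proteins, Pggt1b fell by 0.19 ± 0.06 (SE; limma adjusted p = 0.0380), a call lost under 9 of 21 other settings, and 7 did not pass, Zmpste24 (0.10 ± 0.07), Fnta (0.096 ± 0.063) and Rabggta (-0.057 ± 0.071) among them. Of 6 ubiquitin and ISG15 ligation genes, 4 were higher, namely Ube2l6 (2.38 ± 0.26), Herc6 (0.73 ± 0.10), Uba7 (0.54 ± 0.10) and Rnf213 (0.59 ± 0.16). Of 7 tested inflammasome genes, 4 were higher, 1 was lower and 2 did not pass. Casp1 rose by 1.70 ± 0.18, Casp4 by 1.15 ± 0.14 and Nlrp1b by 0.51 ± 0.14, and Nlrc4 fell by 0.81 ± 0.20 at levels of 0.576 ± 0.166 CPM in CD103Tg and 1.84 ± 0.783 CPM in B6. The size of these changes at low levels depends on the pseudocount, and over the other settings it was 0.43 to 2.09 for Casp4, 0.20 to 0.83 for Nlrp1b and -1.60 to -0.29 for Nlrc4, with each call kept.

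Genes on marker lists for cell types other than CD8 T cells also differed, and their part in the values of the members was not tested. A listed gene need not be confined to its type, and CD8 T cells can express some, Eomes and Klrk1 among them. The counts below stand beside 17.4% of all tested genes called higher and 13.8% called lower. Of 8 tested dendritic cell markers, 6 were higher, and the list summed to 101 to 127 CPM in CD103Tg and 42.9 to 49.8 CPM in B6. Of 6 tested natural killer markers, 5 were higher, with sums of 426 to 620 CPM in CD103Tg and 193 to 231 CPM in B6. Most of these sums came from Eomes, at 345 ± 31.0 CPM in CD103Tg and 164 ± 12.8 CPM in B6, and Klrk1, at 168 ± 47.7 CPM in CD103Tg and 38.7 ± 12.6 CPM in B6, and Klrb1c, Klra8 and Tyrobp were also higher (SD, n = 4 each). Fcer1g did not pass, at 2.30 ± 1.12 CPM in CD103Tg and 2.79 ± 0.166 CPM in B6. Ncr1 and Klra4 were too low to be tested, and neither had a higher mean in CD103Tg. Ncr1 was at 0.401 CPM in CD103Tg and 0.506 CPM in B6, and Klra4 at 0.0445 CPM in CD103Tg and 1.68 CPM in B6. Of 6 tested B cell markers, 3 were higher and 2 lower, with sums of 389 to 561 CPM in CD103Tg and 829 to 921 CPM in B6. Of 5 tested plasma cell markers, 4 were higher, with sums of 17.7 to 46.9 CPM in CD103Tg and 8.28 to 12.4 CPM in B6. Of 4 tested macrophage and monocyte markers, 1 was higher, with sums of 14.5 to 94.2 CPM in CD103Tg and 4.65 to 66.2 CPM in B6. The macrophage marker Lyz2 was at 9.42 CPM in CD103Tg replicate 4, its lowest value in that group, where 9 of the 10 members had their highest.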

How the data were processed

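Per the submitters' processing notes, bcl2fastq 2.17, cutadapt 1.18, STAR 2.7.0f and RSEM were used with the builds GRCm38 and mm10, and no annotation is stated. Per the labels, libraries were made with SMART-Seq v4 and Nextera XT, chemistry that does not mark the strand. The authors deposited 1 filtered table whose values are a gene-level signal, CPM on TMM-scaled library sizes, not counts. All 13245 gene IDs matched GENCODE M21, which gave positions, exon lengths and 50-base stretches shared between transcripts.

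Computed here: limma 3.58.1 in R 4.3.3 on log2(CPM + 1) with a mean-variance trend, for 4 CD103Tg against 4 B6 libraries, two-sided, over genes averaging 1 CPM or more, positive meaning higher in CD103Tg. The fit was also run on simulated data with the same dispersion for all genes and few changed genes. That run checked the code and does not bear on the results. The pseudocount understates changes of low genes. Every value was a whole multiple of 0.01 of a read, within 0.05 of that step, and 63.0% to 65.2% were whole within 0.005 of a read. These estimated reads gave the depth and a voom alternative. Exact tests used scipy 1.17.1 and figures matplotlib 3.10.9. Lists and members were chosen with earlier results of these data known. Named were all members, the 4 genes with the smallest p in each list, and a set of interferon receptor and factor genes, of which some single genes are not reported here; Gbp8, Gbp10, Gbp6, Gm12185, Gvin1, Cd8a, Trac and the markers were added after their values were seen. Planned protein motifs were not run.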

Additional observations from a re-analysis of the deposited data

Results flagged for a closer look

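In groups of 4 libraries, 1 library stood far from the other 3 in 3 of 90 groups looked at over the members and the named list genes, by a criterion that chance meets in about 1 of 20 groups. Irgm1 was at 330 CPM in CD103Tg replicate 4, where the next CD103Tg library was at 254 CPM. Gabarapl2 was at 199.8 CPM in CD103Tg replicate 1, against 170 CPM in the next library of that group. Mx1 was at 18 CPM in B6 replicate 4, against 12.1 CPM in the next B6 library.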

How the results depend on the processing

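Over 21 other settings, Iigp1, Igtp, Irgm2, Gbp3 and Gbp7 kept their direction and stayed past the test, with log2 fold changes of 2.06 to 2.42, 0.60 to 0.77, 0.45 to 0.62, 0.91 to 1.07 and 0.75 to 0.83. The calls of Irgm1, Gbp9 and Tgtp1 were lost under 7, 6 and 5 settings, and those of Tgtp2 and Gbp2 were gained under 2 each, all with their direction kept. Calls were also gained by Ifng under 2 settings and by Ifngr1 and Gabarapl1 under 1 each. Low genes moved with the pseudocount and voom, with ranges of 1.23 to 6.08 for Gm4951, 2.57 to 5.01 for Ifi44, 1.05 to 2.55 for Cxcl10 and 1.48 to 2.90 for Ube2l6. Leaving out 1 library gave 5 to 9 members past the test (5 without B6 replicate 2), 41 to 45 genes of the pathway lists and 2786 to 3591 of all tested genes. The exact test of 3 against 4 libraries cannot give a p below 0.0571; 7 to 9 members reached that value. Both quantile and equal-total scaling gave 6 members past the test, and moved the split over all tested genes to 1745 higher and 1989 lower, and to 1759 and 1850, beside 2000 and 1592 as reported. Without both libraries numbered 4, Tgtp2 passed as lower and Irgm1 did not pass. Irf1 ranged from -0.062 to 0.0018 when 1 library was left out, highest without B6 replicate 2, and was -0.032 as reported, with Rabggta at 0.022 without both libraries numbered 4; both directions turned and neither passed the test; the cause was not tested. Same-numbered libraries deviated together with r of 0.22, 0.35, -0.081 and 0.12 for numbers 1 to 4, so number 3 did not deviate together and the libraries were not treated as paired; numbers 1 and 2 correlated best with their own number and 3 and 4 did not. With the replicate number as a block, 8 members, 44 pathway genes and 3682 of all tested genes passed, and no call of a member changed. The Y-linked covariate was chosen after seeing the data. Precision is limited by the 4 libraries per group.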
